A study of Mus musculus with 18 samples.

Results

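The SLC25 genes encode the mitochondrial carriers, small proteins of the inner mitochondrial membrane that move nucleotides, metabolites, cofactors, phosphate and metal ions between the mitochondrial matrix and the rest of the cell. Erythroblasts, the nucleated precursors of red cells, make heme partly inside mitochondria and later discard these organelles, so they depend on carriers for iron, amino acids and cofactors, while megakaryocytes, which shed platelets, keep theirs. Members were the protein-coding genes of the GENCODE vM21 annotation whose symbol is Slc25a followed by a digit, without Slc25a37 (mitoferrin 1) and Slc25a38 (a glycine carrier needed for heme). This gave 45 of 21938 protein-coding genes, and no measured value was used to choose them.

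The histone marks H3K4me3, a methylation found mainly at promoters, and H3K27ac, an acetylation found at active promoters and enhancers, were mapped by ChIP-seq in erythroblasts (ERY) and immature megakaryocytes (iMK) from the bone marrow of adult C57BL6 mice, with no genetic change or treatment. By the study's methods, the mice were male. ERY were sorted as Ter119+, CD44+ cells of low forward scatter, and iMK as CD41+, CD61+ cells lacking Ter119, Sca1 and cKit. Both sorts also left out cells with CD4, CD8, IL7Ra, CD11b, Ly6g or CD45R. Each mark had 2 libraries per cell type, and the data are 1 peak list per library, with no read counts and therefore with unknown depth. Sorted cells are bulk samples, so fewer cells carrying a mark and less of the mark per cell cannot be told apart.

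The lists held 21768 to 25750 peaks for H3K27ac and 6275 to 13222 for H3K4me3, where the second iMK list covered 33.8 Mb and the other 3 covered 9.02 to 16.0 Mb. The H3K27ac lists covered 64.9 to 77.0 Mb in ERY and 42.9 to 53.2 Mb in the libraries labelled iMK. All 8 erythroid marker genes had an H3K27ac promoter call in both ERY libraries and 1 of them (Klf1) in each library labelled iMK. Of 8 megakaryocyte markers, 4 were called in each ERY library and 1 and 2 in the libraries labelled iMK. Only 1 of the genes of the iMK sort markers passed limma's test for H3K27ac. Itga2b, which encodes CD41, was covered at 16.8% and 3.8% in ERY and at 0% in the libraries labelled iMK. This difference did not pass (adjusted p = 0.21, limma). H3K4me3 covered 6.52% of the Itga2b locus in the second library labelled iMK and 0% in the others. H3K27ac coverage of Itgb3, which encodes CD61, was 0% in both ERY libraries. It was 5.82% and 8.73% in the libraries labelled iMK (adjusted p = 0.0267, limma). Pf4 and Gp6 were at 0% in all 4 libraries, and Gp1ba, Gp9 and Vwf passed as higher in ERY. Of 8 myeloid markers, 5 and 7 were called in the libraries labelled iMK, with summed H3K27ac coverage of 162 and 336 percentage points there, against 2.3 and 0 in ERY. The part of these cell markers in the results below was not tested.

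Of the 45 member promoters, 23 carried H3K27ac in all 4 libraries, 1 in ERY alone and 9 only in both libraries labelled iMK, and the others had mixed calls or none. A promoter was called when a peak touched the 1 kb on either side of any annotated transcription start site. It was called shared when this held in all 4 libraries of a mark, ERY-only or iMK-only when it held in both libraries of one cell type and neither of the other, and unreplicated in any remaining mixture. For H3K27ac, 23 of 45 promoters (51.1%) were shared, against 36.0% of all protein-coding genes. The count of iMK-only promoters was 9 (20.0%, against 8.56% of all genes), and these were Slc25a4, Slc25a13, Slc25a15, Slc25a23, Slc25a26, Slc25a29, Slc25a33, Slc25a43 and Slc25a47. Only Slc25a21 was ERY-only (2.22% of members, 2.17% of all genes). A further 6 promoters were unreplicated and 6 had no call (13.3%, against 47.2% of all genes). Since so few members lacked a call, the classes were also read among genes called in at least 1 library. There, 59.0% of 39 members were shared, against 68.1% of all such genes, and 23.1% were iMK-only, against 16.2%. These shares are descriptions of single sets of 4 libraries and carry no test. Leaving out ERY replicate 1 raised the iMK-only count to 12, while the share of all genes rose to 10.5%. Leaving out that library or iMK replicate 1 raised the ERY-only count from 1 to 2 (2.35% and 2.32% of all genes).

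**Figure D1:**
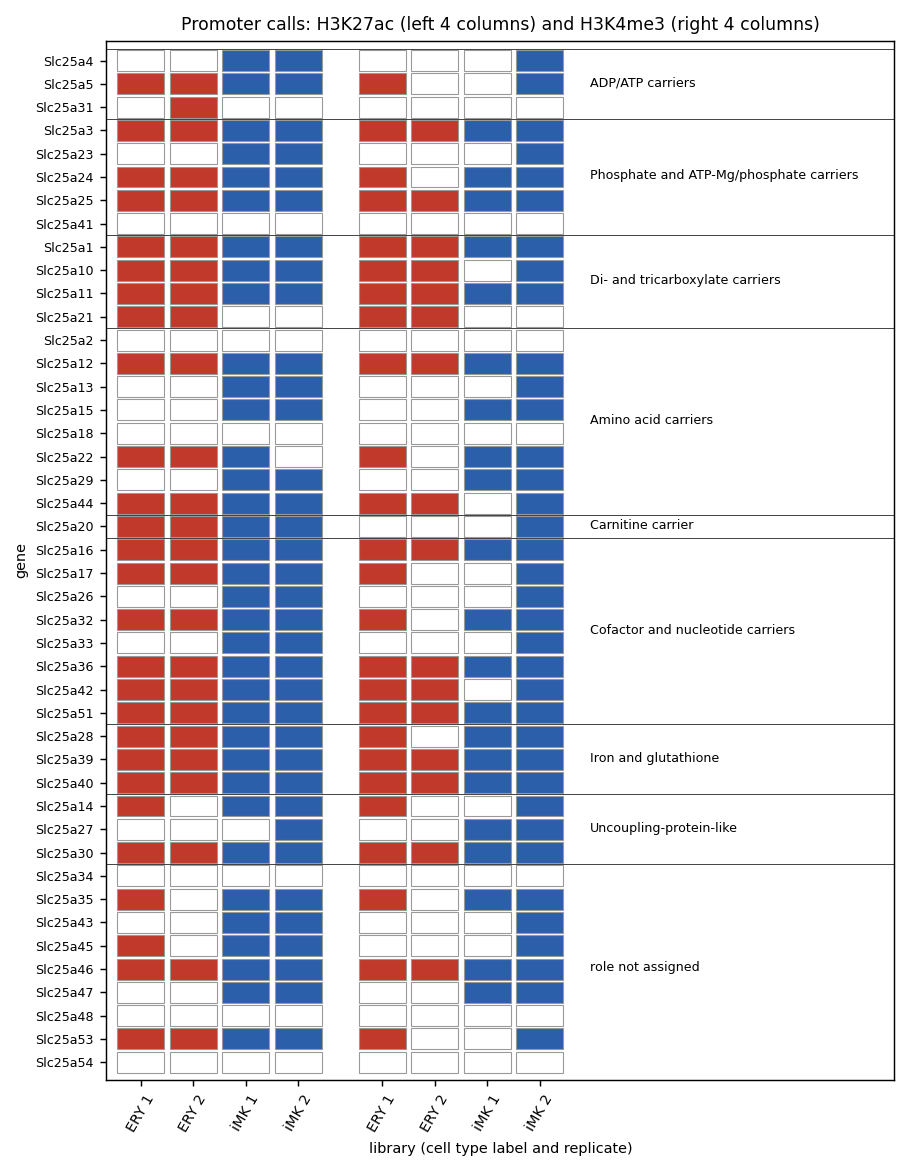
Promoter calls of 44 SLC25 genes, in rows grouped by the carrier's role, in 8 libraries, in columns. A filled box is a peak within 1 kb of an annotated start site (red, ERY; blue, labelled iMK) and an open box is none. Slc25a21 is filled for ERY alone under both marks, and 9 genes are filled for H3K27ac in the 2 libraries labelled iMK alone.

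For H3K4me3, mixed calls were the most frequent class. It was called at 26 and 17 member promoters in the ERY libraries and at 21 and 37 in the libraries labelled iMK. Of 45 promoters, 12 were shared (26.7%, against 24.6% of all genes), and all 12 were also shared for H3K27ac. Slc25a21 was again the ERY-only member (2.22%, against 0.378% of all genes). The iMK-only members were Slc25a15, Slc25a27, Slc25a29 and Slc25a47 (8.89%, against 4.89%), 21 promoters were unreplicated (46.7%, against 23.8%) and 7 had no call (15.6%, against 46.3%). Among genes called in at least 1 library, 31.6% of 38 members were shared, against 45.9% of all such genes. In that reading 10.5% were iMK-only, against 9.12%, and 2.63% were ERY-only, against 0.705%. None of the 9 promoters that were iMK-only for H3K27ac had an H3K4me3 call in an ERY library, whereas all 9 had one in iMK replicate 2 and 3 in iMK replicate 1, so that 6 of the 9 were unreplicated for H3K4me3. Without iMK replicate 1 the count of iMK-only H3K4me3 promoters was 12 (and the share of all genes rose to 14.9%), and without ERY replicate 1 it was 9 (10.7% of all genes). Without iMK replicate 2 there were 5 ERY-only promoters (4.03% of all genes).

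Over the wider locus, the difference between the cell types ran in both directions. Locus coverage is the percent of the gene body and the 10 kb on each side of it that lies under peaks, and it was compared with limma's moderated test, adjusted by the Benjamini-Hochberg method over all genes covered in at least 1 library. For H3K27ac, 44 of 45 members could be tested (all but Slc25a48), 12 were higher in ERY (27.3%, against 22.0% of 14467 genes) and 7 (15.9%, against 17.2%) were higher in the opposite direction, in the libraries labelled iMK. These shares lay near the background of all genes, so the counts are no result about the family as a whole. The median difference, ERY minus iMK, was 0.796 percentage points over the members and 0.599 over all genes tested. With any 1 library left out, 2 to 7 members were higher in ERY, the lowest being 3 without iMK replicate 1 and 2 without iMK replicate 2, while the share of all genes fell from 22.0% to 6.44% and 6.57%. Without either ERY library, 1 member was higher in the libraries labelled iMK, and the share of all genes was 5.29% or 5.24%. Under quantile normalization, 7 members passed toward ERY and 7 passed toward iMK, against 23.2% and 21.6% of all genes. Slc25a21 and Slc25a42 passed under all 12 alternatives tried. Apart from these and Slc25a23, every member called was lost without at least 1 of the libraries. Slc25a4, Slc25a15, Slc25a26, Slc25a33 and Slc25a43 had no H3K27ac peak in either ERY library, and Slc25a21 had none in either library labelled iMK. These loci entered the fit only through the other cell type, and the spread of the empty group was 0. Their p-values therefore rest on the spread of the other group and on limma's pooled spread over all genes.

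**Figure D2:**
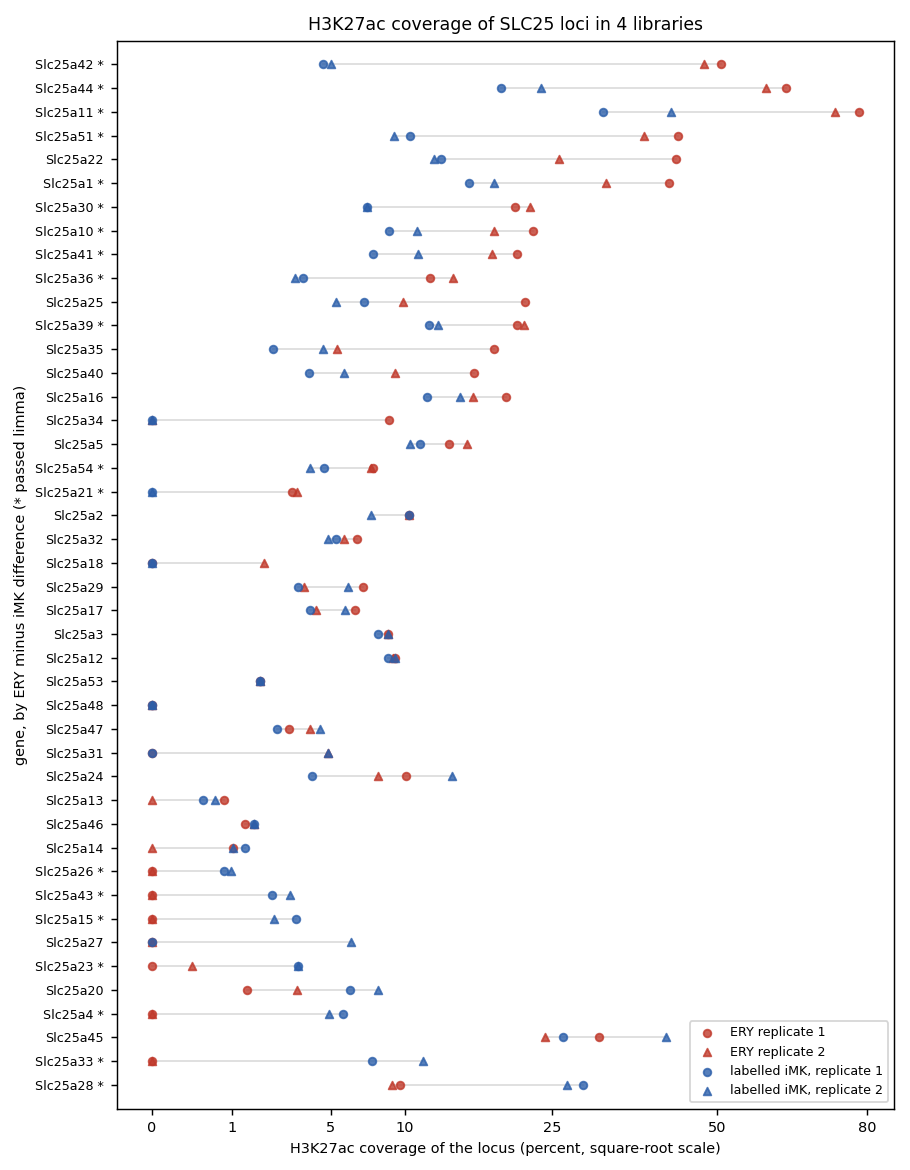
H3K27ac coverage of 44 SLC25 loci in the 4 libraries (red, ERY; blue, labelled iMK; circle, replicate 1; triangle, replicate 2), on a square-root axis in percent of the locus. Genes are ordered by the difference between cell types, and an asterisk marks the 19 that passed limma's test at an adjusted p of 0.05. Slc25a42 is at 50.6% and 47.7% in ERY and at 4.59% and 5.0% in the libraries labelled iMK, while Slc25a28 has the largest difference in the opposite direction.

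The ADP/ATP carriers exchange the ATP made in the matrix for ADP from the cytosol, and their genes fell in different H3K27ac promoter classes. Slc25a4, which encodes the form typical of heart and muscle, lies on chromosome 8 (46206797 to 46211284, minus strand, GRCm38). Its H3K27ac coverage was 0% in both ERY libraries and 5.72% and 4.9% in the libraries labelled iMK. All of the covered bases lay in its own promoter windows, under peaks of 1400 and 1200 bp, and the difference was -5.31 percentage points (SE 0.416, n = 2 per group, adjusted p = 0.00823, limma). Slc25a5, the form typical of dividing cells, lies on chromosome X (36795651 to 36798807, plus strand) and was called in all 4 libraries. Its coverage was 13.8% and 15.5% in ERY and 11.2% and 10.4% in the libraries labelled iMK, a difference of 3.89 points that did not pass (SE 1.3, adjusted p = 0.103). The groups did not overlap for either gene, and the difference between the 2 genes was not tested. Slc25a31, the form typical of the male germ line, had 1 promoter peak, in ERY replicate 2, with a fold of 1.95 over control. H3K4me3 was called at Slc25a4 in iMK replicate 2 alone, and at Slc25a5 in ERY replicate 1 and iMK replicate 2.

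The promoters of Slc25a4 and Slc25a5 are shown because these genes have the same substrates and different calls. Each run is 250 bases before to 50 bases after the RefSeq start site on GRCm38.p6, at chr8:46211013-46211312 on the minus strand and chrX:36795347-36795646 on the plus strand. Capitals mark matches on either strand to 6 letter patterns: GATAA (bound by GATA factors), CACGTG (the E-box), CCGGAAG (ETS factors), GCGCATG (NRF1), CCAAT (NF-Y) and GGGCGG (Sp/KLF factors). A match is a description of letters and not a bound site.
Slc25a4: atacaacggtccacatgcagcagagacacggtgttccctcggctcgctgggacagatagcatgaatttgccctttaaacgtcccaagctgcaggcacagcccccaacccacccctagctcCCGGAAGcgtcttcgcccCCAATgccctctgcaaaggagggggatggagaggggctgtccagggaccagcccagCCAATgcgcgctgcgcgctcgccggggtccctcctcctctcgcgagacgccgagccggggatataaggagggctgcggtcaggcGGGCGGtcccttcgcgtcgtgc
Slc25a5: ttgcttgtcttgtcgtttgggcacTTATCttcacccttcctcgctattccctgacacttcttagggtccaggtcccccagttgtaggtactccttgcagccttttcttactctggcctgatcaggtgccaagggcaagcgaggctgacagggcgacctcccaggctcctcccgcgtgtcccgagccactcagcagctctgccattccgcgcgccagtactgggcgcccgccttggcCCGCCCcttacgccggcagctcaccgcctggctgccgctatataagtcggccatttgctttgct
Slc25a4 held 1 ETS pattern, 2 CCAAT boxes and 1 GC box, and 25 CpG dinucleotides. Slc25a5 held 1 GATA pattern, read on the opposite strand, and 1 GC box, with 18 CpG.

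In the RefSeq table, 35 of 45 members had a promoter entry, with 45 entries in all since some genes have several starts. The GC box stood in 82.2% of these entries, against 47.8% of the 20150 promoter entries of protein-coding genes, and the CCAAT box in 48.9%, against 37.8%. The E-box stood in 17.8%, against 8.03%, the ETS pattern in 13.3%, against 11.9%, GATAA in 20.0%, against 22.1%, and the NRF1 pattern in 4.44%, against 4.94%. With 1 entry per gene, the member promoters held a median of 17 CpG in 300 bases, against 14 over all entries. Shared promoters held a median of 24 (range 12 to 47, 18 genes), iMK-only promoters 16 (7 to 32, 8 genes), unreplicated promoters 7 (6 to 22, 4 genes), promoters without a call 9 (1 to 15, 4 genes) and the ERY-only promoter of Slc25a21 held 4. The lowest iMK-only value, 7, is that of Slc25a47, whose RefSeq start lies 15083 bp from the GENCODE 5' end, away from the peaks that gave its class. The next was 11, at Slc25a43. The ranges of the shared and iMK-only promoters overlapped.

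Among the carriers of phosphate and of ATP-Mg, Slc25a3 varied least. It encodes the carrier that brings phosphate into the matrix for ATP synthesis, and its H3K27ac coverage was 8.73% in both ERY libraries and 8.0% and 8.73% in the libraries labelled iMK (difference 0.364, SE 0.863, adjusted p = 0.75). The calcium-regulated ATP-Mg/phosphate carriers adjust the adenine nucleotide pool of the matrix. Slc25a24 and Slc25a25 were shared and did not pass, with coverage of 10.1%, 7.96%, 3.98% and 14.1% at Slc25a24 and 21.8%, 9.83%, 7.02% and 5.27% at Slc25a25 in ERY replicates 1 and 2 and iMK replicates 1 and 2. Slc25a23 was iMK-only. It was covered at 0% and 0.249% in ERY and at 3.32% in both libraries labelled iMK (difference -3.19, SE 0.215, adjusted p = 0.00703), under a peak of 1200 bp that also reaches the start of Crb3, 758 bp away. With 25 kb on each side the Slc25a23 difference turned to 3.09 and did not pass. Slc25a41, a related carrier, had no promoter call. Its locus was covered at 20.8% and 18.1% in ERY and 7.62% and 11.1% in the libraries labelled iMK (difference 10.1, SE 2.07, adjusted p = 0.0405), and 4736 of the 5614 bp covered on average in ERY lay at other genes, mainly at the start of Khsrp. The call of Slc25a41 passed under 3 of 12 alternatives and was lost without any 1 of the 4 libraries.

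All 4 carriers of di- and tricarboxylates passed as higher in ERY, as did 22.0% of all genes tested. Counts by role are descriptions of small groups, with no test of the group. These carriers exchange intermediates of the citric acid cycle with the cytosol. Slc25a21, which encodes the carrier of 2-oxodicarboxylates such as 2-oxoadipate, lies on chromosome 12 (56712634 to 57197472, minus strand), a gene body of 484839 bp. It was covered at 3.05% and 3.29% in ERY and at 0% in both libraries labelled iMK (difference 3.17, SE 0.205, adjusted p = 0.00681). This small share is 16000 bp of H3K27ac on average, of which 2001 bp lay in its promoter windows and 10071 bp in the rest of the gene. The promoter peak measured 3200 bp (fold 18.6) in ERY replicate 1 and 12000 bp (fold 6.22) in replicate 2. Further peaks in both ERY libraries were centred 13171 and 34071 bp into the gene. H3K4me3 peaks of 2200 and 2800 bp covered the start in ERY alone.

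The Slc25a21 promoter is shown because it was the ERY-only member under both marks (chr12:57197423-57197722, minus strand, with the same capitals as above). It held 4 CpG, and its only match was 1 CCAAT box on the opposite strand.
Slc25a21: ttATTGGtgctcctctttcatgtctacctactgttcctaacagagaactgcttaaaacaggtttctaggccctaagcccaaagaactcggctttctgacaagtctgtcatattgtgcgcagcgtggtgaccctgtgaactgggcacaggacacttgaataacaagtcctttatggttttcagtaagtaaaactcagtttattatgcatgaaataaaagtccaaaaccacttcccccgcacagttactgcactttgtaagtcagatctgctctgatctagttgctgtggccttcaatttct

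Slc25a11 encodes the oxoglutarate carrier, a part of the malate-aspartate shuttle. It was the most covered member, at 78.2% and 73.0% in ERY and 31.8% and 42.1% in the libraries labelled iMK (difference 38.7, SE 5.03, adjusted p = 0.0174). The gene is small (chromosome 11, 70644196 to 70647479, minus strand) and crowded, and 11762 of the 17600 bp covered in ERY lay at the neighbours Gp1ba, Rnf167 and Pfn1. Gp1ba, itself a platelet glycoprotein gene, was covered at 67.4% and 70.0% in ERY and 15.7% and 22.7% in the libraries labelled iMK. The promoter peak of Slc25a11 measured 11800 and 11000 bp in ERY and 2200 and 3800 bp in the libraries labelled iMK. Its start lies 244 bp from that of Rnf167, so the promoter call cannot be given to one of them. Over the gene body alone the difference was 30.5 points and did not pass (adjusted p = 0.162), and under quantile normalization it was 5.08 (adjusted p = 0.275). The call passed under 5 of 12 alternatives.

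The Slc25a11 promoter is shown as that of the shared member with the highest mean coverage (chr11:70646990-70647289, minus strand). It held 24 CpG, 1 CCAAT box and 2 GC boxes.
Slc25a11: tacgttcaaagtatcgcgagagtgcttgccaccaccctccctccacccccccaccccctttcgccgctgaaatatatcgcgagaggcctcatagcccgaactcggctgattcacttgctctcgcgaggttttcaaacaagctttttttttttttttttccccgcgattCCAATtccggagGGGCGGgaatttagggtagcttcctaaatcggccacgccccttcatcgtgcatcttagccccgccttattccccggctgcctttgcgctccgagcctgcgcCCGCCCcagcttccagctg

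Slc25a1, the citrate carrier that exports citrate for fatty acid and sterol synthesis, was covered at 41.8% and 32.2% in ERY and 15.7% and 18.3% in the libraries labelled iMK (difference 20.0, SE 4.34, adjusted p = 0.0448). Its own promoter windows were covered alike, over 1919 bp in ERY and 1800 bp in iMK on average, and the flank outside any coding gene held 6590.5 bp in ERY against 2100 bp. Over the gene body of Slc25a1 alone the difference was 0.0 points. Slc25a10, the dicarboxylate carrier, was covered at 22.7% and 18.3% in ERY and 8.78% and 11.0% in the libraries labelled iMK (difference 10.6, SE 2.27, adjusted p = 0.044). Here 3232.5 of 5600 bp in ERY lay at other genes, among them Hgs and Mrpl12. Slc25a1 and Slc25a10 each passed under 3 of 12 alternatives.

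Of the 8 amino acid carriers, 1 passed toward ERY, 1 toward the libraries labelled iMK and 6 did not pass, where 22.0% and 17.2% of all genes passed in these directions. Slc25a44, a carrier of branched-chain amino acids (chromosome 3, 88410498 to 88425139, minus strand), was covered at 62.9% and 58.9% in ERY and 19.1% and 23.7% in the libraries labelled iMK (difference 39.5, SE 3.26, adjusted p = 0.00873). In each ERY library a single peak, of 20400 and 19000 bp, covered 100% of the gene body and reached the start of Pmf1, where the libraries labelled iMK had separate peaks and body coverage of 19.4% and 33.1%. Slc25a15, the ornithine carrier of the urea cycle, was covered at 0% in both ERY libraries and at 3.25% and 2.32% in the libraries labelled iMK (difference -2.79, SE 0.406, adjusted p = 0.021), and its promoter was iMK-only for both marks.

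The aspartate-glutamate carriers of the malate-aspartate shuttle, Slc25a12 and Slc25a13, were called differently. Slc25a12 (aralar) was shared and level, at 9.26% and 9.08% in ERY and 8.74% and 9.26% in the libraries labelled iMK (adjusted p = 0.882). Slc25a13 (citrin) was called at its promoter in the libraries labelled iMK alone, under peaks of 800 and 1200 bp, but its coverage of 0.817%, 0%, 0.408% and 0.612% overlapped between the cell types (adjusted p = 0.827). ERY replicate 1 had a peak elsewhere in the gene. Slc25a22, a glutamate carrier, was covered at 43.0% and 25.9% in ERY and 13.1% and 12.4% in the libraries labelled iMK, the largest difference that did not pass (21.7, SE 6.96, adjusted p = 0.0958). Its promoter was unreplicated for H3K27ac. At this locus, 5846 of the 9692 bp covered on average in ERY and 2992 of 3592 bp in iMK lay at other genes. Slc25a18, the other glutamate carrier, and Slc25a2, an ornithine carrier, had no promoter call of either mark.

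Slc25a29, a carrier of basic amino acids, and Slc25a47 start 163 bp apart on opposite strands of chromosome 12, so their iMK-only calls rest on the same peaks, of 1000 and 1800 bp for either mark. Neither locus passed for H3K27ac: Slc25a29 was covered at 6.94%, 3.61%, 3.33% and 6.0%, and Slc25a47 at 2.94%, 3.92%, 2.45% and 4.42%, in ERY replicates 1 and 2 and iMK replicates 1 and 2. In ERY, the covered bases of Slc25a47 lay within its body and none in its promoter windows.

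Of the 9 carriers of cofactors and nucleotides, 3 passed toward ERY, 2 toward the libraries labelled iMK and 4 did not pass, beside the same shares of all genes. Slc25a42 imports coenzyme A, which heme synthesis needs for succinyl-CoA. It lies on chromosome 8 (70184340 to 70212305, minus strand) and had the largest difference of the family, with 50.6% and 47.7% covered in ERY and 4.59% and 5.0% in the libraries labelled iMK (difference 44.3, SE 2.11, adjusted p = 0.0065). The promoter windows were covered alike, over 1777.5 bp in ERY and 1705 bp in iMK. The rest of the gene held 15028 bp of H3K27ac in ERY and 400 bp in iMK, most of it under 1 intragenic peak of 12200 bp in ERY replicate 1 and 10600 bp in replicate 2, centred 8804 and 9804 bp from the 5' end. H3K4me3 at its promoter was called in both ERY libraries and in iMK replicate 2.

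Slc25a51, the carrier of NAD+, was covered at 43.2% and 37.8% in ERY and 10.4% and 9.13% in the libraries labelled iMK (difference 30.8, SE 2.79, adjusted p = 0.0098). A peak of 11600 and 11400 bp ran from the promoter over most of the gene (chromosome 4, 45395923 to 45408766, minus strand) in ERY, against 3400 and 3000 bp in the libraries labelled iMK. None of the covered bases lay at another coding gene. The pyrimidine nucleotide carriers Slc25a36 and Slc25a33 moved in opposite directions. Slc25a36 was shared and was covered at 12.1% and 14.2% in ERY and 3.56% and 3.2% in the libraries labelled iMK (difference 9.79, SE 1.17, adjusted p = 0.015), with 4795 bp of its gene body outside the promoter windows covered in ERY against 93 bp. Slc25a33 was iMK-only, covered at 0% in both ERY libraries and at 7.56% and 11.5% in the libraries labelled iMK (difference -9.55, SE 1.65, adjusted p = 0.0289). Besides the promoter peaks of 800 bp (fold 22.0) and 1400 bp (fold 8.65), peaks of 2000 and 3400 bp lay upstream of Slc25a33, centred at -6324 and -6424 bp from its 5' end. The call of Slc25a33 was lost when only bases outside other genes were counted, with no filter on covered genes, and without either ERY library. Slc25a26, which imports S-adenosylmethionine, was also iMK-only, at 0% in both ERY libraries and 0.804% and 0.965% in the libraries labelled iMK (difference -0.885, SE 0.137, adjusted p = 0.0234).

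The Slc25a33 promoter is shown as the iMK-only promoter whose locus differed most (chr4:149774218-149774517, minus strand). It held 30 CpG, 1 E-box, 1 CCAAT box, and on the opposite strand 1 GATA pattern and 1 GC box.
Slc25a33: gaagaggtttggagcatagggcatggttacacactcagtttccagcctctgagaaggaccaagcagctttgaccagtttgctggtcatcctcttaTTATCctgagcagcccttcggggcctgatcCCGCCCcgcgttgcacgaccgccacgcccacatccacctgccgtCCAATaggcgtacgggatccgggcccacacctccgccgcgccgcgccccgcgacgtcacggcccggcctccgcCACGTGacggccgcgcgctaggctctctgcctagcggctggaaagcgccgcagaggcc

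Of the remaining carriers in this group, Slc25a16 (placed with coenzyme A transport), Slc25a17 (the peroxisomal member) and Slc25a32 (folate), were shared and did not pass, with adjusted p from 0.193 to 0.774. Slc25a20, the carnitine-acylcarnitine carrier that admits fatty acids for oxidation, was covered at 1.41% and 3.29% in ERY and 6.11% and 7.99% in the libraries labelled iMK, without overlap and just short of the threshold (difference -4.7, SE 1.15, adjusted p = 0.057). Of the covered bases in iMK, 2000 of 3000 bp lay at another gene, Prkar2a.

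Slc25a28 encodes mitoferrin 2, the iron importer of most tissues, whereas erythroid cells are known for mitoferrin 1. It lies on chromosome 19 (43663801 to 43674881, minus strand) and was the member with the largest difference toward the libraries labelled iMK. It was covered at 9.65% and 9.01% in ERY and 29.0% and 27% in the libraries labelled iMK (difference -18.7, SE 1.58, adjusted p = 0.00906). The promoter peaks were alike in width, at 3000 and 2800 bp in ERY and 2800 and 3000 bp in iMK. The excess lay in 2 further peaks, 1 in the gene (3600 and 3000 bp, centred 4680 and 4580 bp from the 5' end) and 1 upstream (2600 and 2400 bp, centred at -4820 and -4920 bp), neither of which was listed in ERY. Slc25a37, the mitoferrin 1 gene, which the rule left out, was covered at 58.3% and 47.3% in ERY and 7.27% and 6.32% in the libraries labelled iMK (difference 46.0, SE 4.79, adjusted p = 0.0119).

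The glutathione carrier Slc25a39 was covered at 20.8% and 21.6% in ERY and 12.0% and 12.8% in the libraries labelled iMK (difference 8.81, SE 1.34, adjusted p = 0.0225), and none of these bases lay at another coding gene. The call of Slc25a39 was lost under quantile normalization and without any 1 of the 4 libraries. Its paralog Slc25a40 was covered at 16.2% and 9.24% in ERY and 3.85% and 5.78% in the libraries labelled iMK, which did not pass (difference 7.89, SE 2.97, adjusted p = 0.128), and its start lies 134 bp from that of Dbf4. Both promoters were shared for both marks. Of the carriers related to uncoupling proteins, Slc25a30 was covered at 20.6% and 22.3% in ERY and 7.25% in both libraries labelled iMK (difference 14.2, SE 1.32, adjusted p = 0.01). ERY alone had a peak of 2600 and 3200 bp centred 13136 and 13436 bp into Slc25a30. At this locus, 3784 of the 10084 bp covered on average in ERY and 1200 of 3400 bp in iMK lay at other genes. Slc25a14 and Slc25a27 had unreplicated H3K27ac promoters and did not pass, and Slc25a27 was covered at 6.18% in iMK replicate 2 and at 0% in the other 3 libraries.

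**Figure D3:**
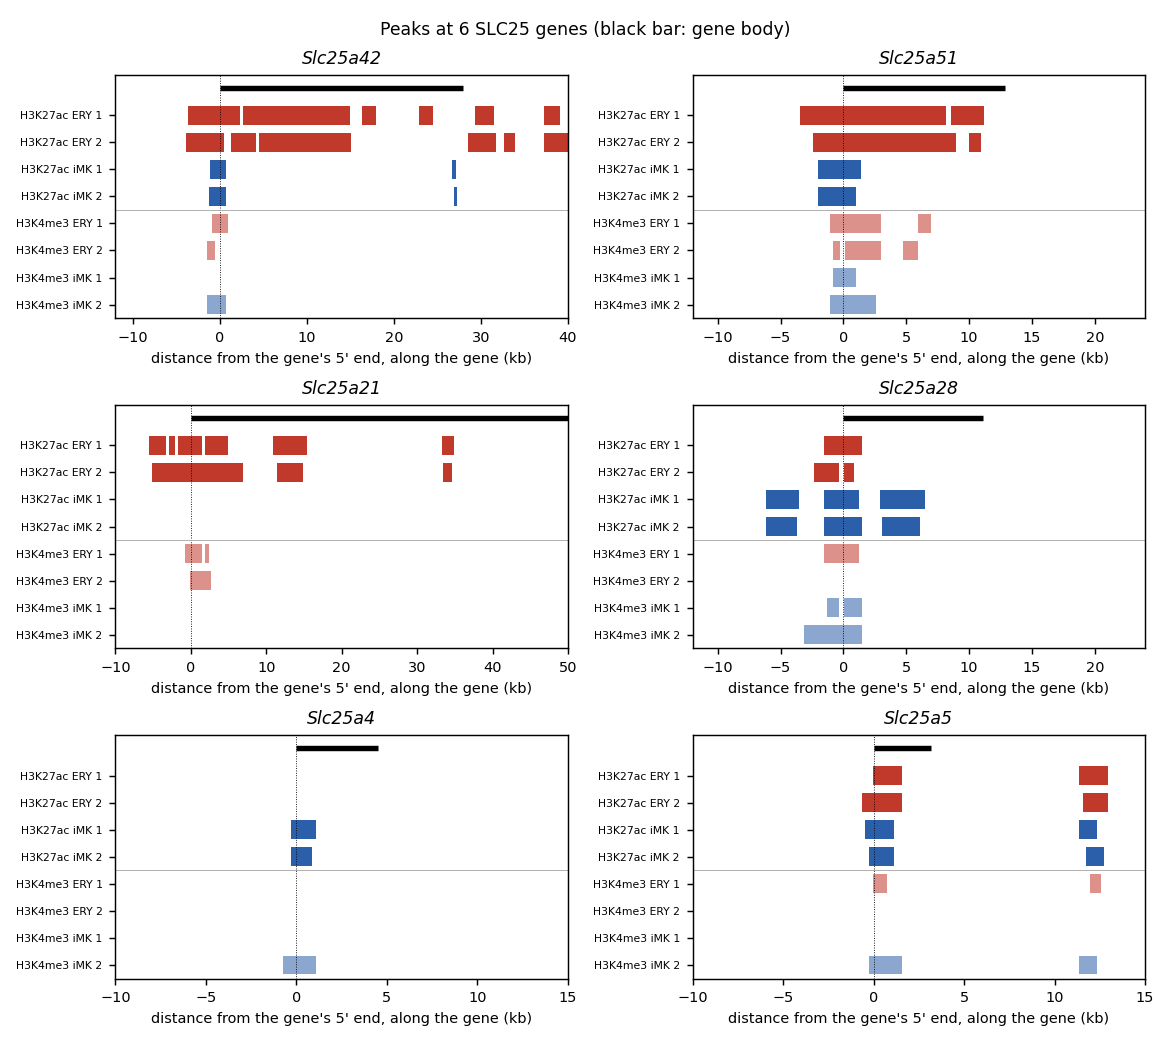
Peaks of both marks in 4 libraries each at 6 SLC25 genes, drawn as boxes against the distance from the gene's 5' end in kb (black bar, gene body; that of Slc25a21 runs on past the right edge; red, ERY; blue, labelled iMK; paler, H3K4me3). Slc25a42 and Slc25a51 have peaks over 10 kb wide in ERY, Slc25a21 has peaks in ERY alone, Slc25a28 has 2 extra H3K27ac peaks in the libraries labelled iMK, and Slc25a4 has none in ERY while Slc25a5 has them in all 4.

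No role was assigned to the other 9 members. Slc25a43, on chromosome X, was iMK-only and was covered at 0% in both ERY libraries and 2.24% and 2.99% in the libraries labelled iMK (difference -2.61, SE 0.339, adjusted p = 0.0173). Slc25a54 was called higher in ERY, at 7.63% and 7.47% against 4.62% and 3.91% (difference 3.28, SE 0.651, adjusted p = 0.038), but it had no promoter peak and all of the bases covered in ERY lay at its neighbour Slc25a24. Counting only bases outside other genes, its difference was -0.143 and did not pass. Slc25a53 was covered at 1.81% in all 4 libraries. Slc25a45, next to Frmd8 and Tigd3, was covered at 31.3%, 24.2%, 26.4% and 41.3%, and Slc25a46, an outer membrane protein, at 1.35% to 1.63%, with neither passing. Slc25a35 had an unreplicated promoter, Slc25a34 had 8.8% covered in ERY replicate 1 alone, and no peak of either mark lay at the Slc25a48 locus. In all, 6 members had no promoter call of either mark: Slc25a2, Slc25a18, Slc25a34, Slc25a41, Slc25a48 and Slc25a54.

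The covered bases were divided by where they lay, because 36 of 45 loci hold another protein-coding gene and 26 hold its 5' end. Among the 12 loci higher in ERY, 4 had over 50% of their covered bases in ERY at other genes (Slc25a10, Slc25a11, Slc25a41 and Slc25a54). At Slc25a1, Slc25a21, Slc25a36, Slc25a39 and Slc25a51 no covered base in ERY lay at another gene. Among the 7 loci higher in the libraries labelled iMK, the covered length lay wholly or mostly in the own promoter windows at Slc25a4, Slc25a15, Slc25a23, Slc25a26 and Slc25a43, with 1100 to 1400 bp in all at each. The windows of Slc25a23 overlap those of Crb3, and none of its covered bases lay outside other genes and the 1 kb around them. Slc25a28 and Slc25a33 had more outside these windows. Counting only bases outside other genes, 38 members could be tested, 8 were higher in ERY (against 20.6% of 12648 genes) and 5 were higher in the libraries labelled iMK (against 16.5%).

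**Figure D4:**
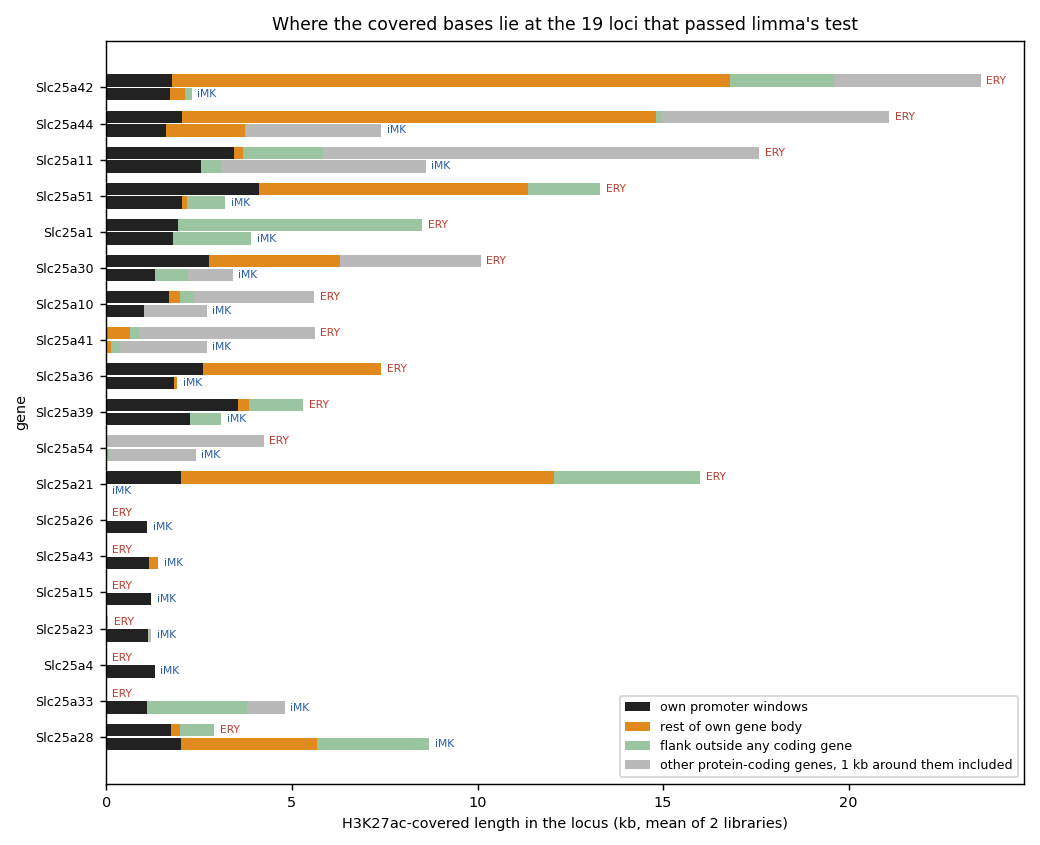
H3K27ac-covered length in kb at the 19 loci that passed limma's test, as the mean of 2 libraries per cell type (upper bar, ERY; lower bar, labelled iMK), divided into the gene's own promoter windows, the rest of its body, flank outside any coding gene, and other coding genes with 1 kb around them. At Slc25a42 the rest of the gene body holds 15028 bp in ERY and 400 bp in iMK, whereas most covered bases of Slc25a11 in ERY lie at other genes.

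At the 23 promoters shared for H3K27ac, ERY peaks were mostly wider and peaks of the libraries labelled iMK mostly had a higher fold over control. In 14 of 23 (60.9%, against 50.3% of the 7897 shared promoters of all genes), the promoter peaks, summed over all start sites of a gene, were wider in both ERY libraries than in both libraries labelled iMK, and in 1 (Slc25a12; 4.35%, against 13.4%) the reverse held. At Slc25a12 the reverse came from further peaks at start sites within the gene in the libraries labelled iMK, since the peak at its 5' end measured 4000 and 2800 bp in ERY and 1800 bp in both libraries labelled iMK. The fold was above in both libraries labelled iMK at 21 of 23 (91.3%, against 86.1%) and above in both ERY libraries at 0 (against 0.633%). These shares lay near those of all shared promoters, so the counts are no result about the family as a whole. Median summed promoter peak width was 3800 and 2800 bp in ERY and 2000 and 2200 bp in the libraries labelled iMK, against 3000, 2800, 2000 and 2200 bp over all shared promoters. Median fold was 4.81, 3.97, 11.8 and 11.2, against 5.17, 3.84, 11.5 and 10.5. Fold and width depend on each library's depth and control, whose part was not tested.

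**Figure D5:**
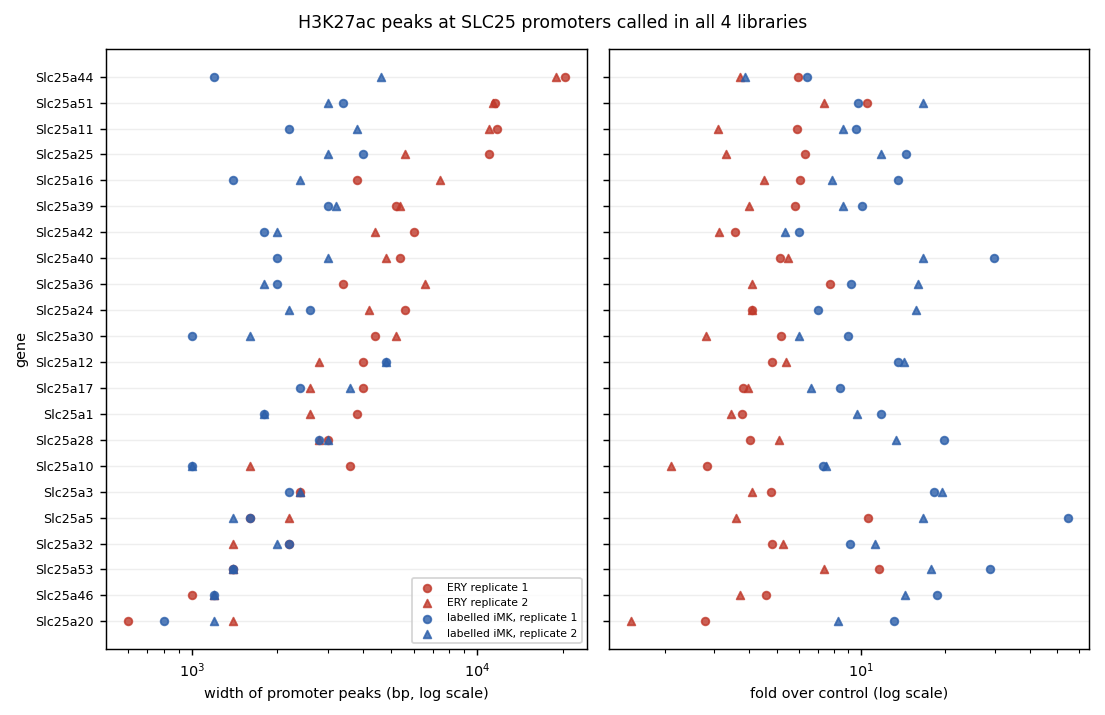
Total width in bp of the H3K27ac peaks at 22 SLC25 promoters called in all 4 libraries (left) and their highest fold over control (right), on log axes, 1 point per library (red, ERY; blue, labelled iMK; circle, replicate 1; triangle, replicate 2). Slc25a44 is widest in ERY at 20400 and 19000 bp, and the blue points lie to the right of the red ones in the fold panel for 20 genes.

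For H3K4me3 locus coverage, 41 members could be tested and limma called 0 in either direction, as it did for 0.0% of 13561 genes. At an unadjusted p under 0.05, 2 members (Slc25a29 and Slc25a47, at 1 shared promoter) and 418 genes in all had more coverage in the libraries labelled iMK, and 0 members and 64 genes had more in ERY. Shifts of 10 and 20 percentage points were put into simulated data. They were recovered for 0 and 3 of 100 genes for H3K4me3 (13561 genes) and for 74 and 99 of 100 for H3K27ac (14467 genes). The shifted genes left out the least covered loci, and noise was drawn independently for each library. The simulation therefore cannot tell what was detectable at less covered SLC25 loci, or how a shift of a whole list acts. Without iMK replicate 1, whose list is far shorter than that of replicate 2, 11 members and 30.4% of all genes passed toward iMK, and without replicate 2 it was 5 members and 8.63%. Slc25a21 was covered at 0.555% in both ERY libraries and 0% in the libraries labelled iMK. It did not pass in the main fit (adjusted p = 0.876, limma), but passed as higher in ERY when no filter on covered genes was used. Its spread was 0 in both groups, since each ERY list covered 2800 bp and the lists labelled iMK held no peak there. This pass is therefore not read as a result. The 4 members on chromosome X (Slc25a5, Slc25a14, Slc25a43 and Slc25a53) had H3K4me3 promoter calls in ERY replicate 1 or iMK replicate 2 alone, the lists with 177 and 350 peaks on that chromosome, against 31 and 39 in the other 2.

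Other genes of the pathway were taken from lists chosen for their function, and their H3K27ac counts stand beside the 22.0% of all genes that were higher in ERY and the 17.2% that were higher in the libraries labelled iMK. No list was tested as a group. Of 5 carriers of the family without the Slc25a prefix, 4 could be tested, 2 passed as higher in ERY and 0 passed in the opposite direction. The 2 were Ucp3, an uncoupling protein known from muscle, at 80.9% and 71.9% in ERY and 11.5% and 21.7% in the libraries labelled iMK (adjusted p = 0.0107), and Mtch2, an outer membrane member, at 22.2% and 26.2% against 6.05% and 8.07% (adjusted p = 0.0163). The Ucp3 promoter had no H3K4me3 call, yet H3K4me3 covered 19.1% and 18.6% of its locus in ERY and 12.6% and 13.3% in the libraries labelled iMK. The covered bases of these listed genes were not divided by place, so coverage may belong to neighbouring genes. Both genes the rule left out were higher in ERY. Of 13 genes that import carriers into the inner membrane, 4 were higher in ERY, among them the chaperone Timm10 (35.4% and 31.1% against 3.45% and 5.17%, adjusted p = 0.00831), and 3 were higher in the libraries labelled iMK, among them the translocase Timm22 (4.77% and 4.09% against 10.9% and 11.6%, adjusted p = 0.0161). Of 16 other mitochondrial transport genes, 6 were higher in ERY, among them Abcb10, an inner membrane transporter needed in erythroid cells (38.5% and 36.2% against 6.71% in both, adjusted p = 0.0065), and 1, Sfxn5, was higher in the libraries labelled iMK (0% in both against 4.7% and 4.56%, adjusted p = 0.0065). For H3K4me3, 0 genes of these lists were called.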

How the data were processed

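Of 18 samples, the 8 ChIP libraries with peak lists were analysed; 10 input libraries (4 ERY, 6 iMK) were not used here. Groups came from the submitters' labels, which give no replicate numbers; 1 and 2 only name libraries, in accession order. By the study's methods, replicates were biological and came from other mice or another sorted portion, which the labels do not state, and p-values measure the spread between these libraries. Among the labels, only that of ERY replicate 1 for H3K4me3 names an antibody (Millipore). Whether the other libraries used the same antibody is not stated there. The members, gene lists and tests were chosen with earlier results of these data known. The promoters of Slc25a4 and Slc25a5 were chosen for printing after their values were seen, and those of Slc25a11, Slc25a21 and Slc25a33 by a rule on class and difference.

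The authors called peaks separately per library. The submitters' notes name Bowtie 1.0.0, SICER 1.1 and mm10 without giving roles, whereas Bowtie and MACS are given in the study's methods for ChIP-seq. Peak edges all lay on steps of 200 bp. The values the authors deposited per peak were a fold (ChIP over control, a ratio), a p-value and a q-value, with every q-value under 0.01. Joined windows can make 1 peak of several elements. A list shows only what passed its threshold, so 0% means that no peak was listed and not that a mark was absent. Depth is unknown, so no counting interval is given.

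Gene models were GENCODE vM21 (GRCm38, the same assembly as mm10) outside the mitochondrial genome, with coordinates counted from 1. Coverage was computed with Python 3.11.15 (pandas 2.3.3, numpy 2.4.6) and compared with limma 3.58.1 (R 4.3.3), with a trend and no covariates, per mark, with a threshold of 0.05. An exact test of 2 libraries against 2 has only 6 arrangements and was not used. The fit was tested on simulated data. Members were named with values if their promoter was ERY-only or iMK-only, if they passed limma, by the 5 largest differences in each direction, or by role; other members named were chosen after their values were seen. 1 member enters the counts but is not reported here by itself. Alternatives were stricter peaks (q under 1e-10), equal list lengths, other windows (2.5 kb, 5' end only, 200 bp overlap) and loci (gene body, 25 kb), no filter, log2 of percent plus 1, quantile normalization, each library left out and, added after seeing the data, only bases outside other genes. Promoter sequences came from RefSeq on GRCm38.p6.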

Additional observations from a re-analysis of the deposited data

How the results depend on the processing

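With each library left out in turn, the count of members higher in ERY for H3K27ac ran from 2 to 7 (12 with all libraries) and that higher in the libraries labelled iMK from 1 to 8 (7 with all). ERY-only H3K27ac promoters ran from 1 to 2. For H3K4me3, members higher in ERY ran from 0 to 1, members higher in iMK from 0 to 11, ERY-only promoters from 1 to 5 and iMK-only promoters from 4 to 12. Quantile normalization left 7 members higher in ERY for H3K27ac (23.2% of all genes). With no filter on covered genes, 1 member was higher in ERY for H3K4me3. Taking the same number of peaks from every list gave 3 ERY-only and 2 iMK-only H3K4me3 promoters (2.48% and 4.26% of all genes), and peaks with q under 1e-10 gave 2 iMK-only (3.88%). The H3K27ac difference changed sign at 2 members: that of Slc25a23 was 3.09 with 25 kb on each side, and that of Slc25a54 was -0.143 over bases outside other genes. Of the 19 members called for H3K27ac, 19 remained called with equal list lengths, 18 on the log2 scale, 16 with q under 1e-10, 14 with no filter, 14 with 25 kb, 13 over the gene body alone, 12 over bases outside other genes, 10 under quantile normalization, and 6, 6, 10 and 9 without ERY replicate 1, ERY replicate 2, iMK replicate 1 and iMK replicate 2. The wider flank adds bases of neighbouring genes, and a fit without 1 library has fewer samples; the cause was not tested for the others. No paired analysis was possible because the labels number no replicates.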
